A study of Mus musculus with 288 samples.

Results

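The 8 genes of heat production Ucp1, Dio2, Ppargc1a, Ppargc1b, Cidea, Prdm16, Slc27a2 and Ucp3 were followed through a mouse circadian atlas measured on microarrays. They were chosen by symbol, out of 19938 genes that had a probe set with a single gene symbol. The choice was made with earlier results of these data known. Ppargc1a had 2 such probe sets and the other members 1 each, which makes 9 in all. The atlas holds 288 arrays, 24 from each of 12 tissues (brown and white adipose; heart, skeletal muscle and aorta; liver, kidney, lung and adrenal gland; and hypothalamus, cerebellum and brainstem of the brain), and asks which genes follow a daily cycle, where, and when they peak. All mice were of the strain C57/BL6 and were kept in constant darkness after 1 week of a light schedule with days and nights of 12 h. The labels name no mutation and no drug, and give neither age nor sex. Tissue was taken at intervals of 2 h, the first at CT18 and the last at CT64 of circadian time (CT), and CT0 to CT12 of each cycle is the subjective day. Each array carries RNA pooled from 3 mice and no time was repeated, so the pool is the unit throughout, and a p-value sets a wave against the scatter of the pools about it.

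Brown adipose burns lipid for heat. Cold and the sympathetic nerves release noradrenaline, beta-adrenergic receptors raise cAMP, stored fat is broken down, and the uncoupling protein encoded by Ucp1 lets protons back across the inner mitochondrial membrane without making ATP. Dio2 encodes the deiodinase that makes active thyroid hormone inside the cell, Ppargc1a and Ppargc1b encode the coactivators PGC-1alpha and PGC-1beta of mitochondrial genes, and Prdm16 a transcription factor that keeps brown fat identity. Cidea encodes a lipid droplet protein abundant in brown adipocytes, Slc27a2 a very-long-chain acyl-CoA synthetase and fatty acid transporter, and Ucp3 a relative of Ucp1 made in muscle and brown fat.

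The 250 bases before the RefSeq start (build GRCm38.p6) are shown for 5 members because they hold letters to which factors of the cAMP pathway, of the clock or of the nuclear receptor family are known to bind, and because these members had a daily wave in at least 1 tissue. Sequences read 5′ to 3′ along the strand of the gene, and capitals mark the matches.
Ucp1, chr8:83290098-83290347, plus strand: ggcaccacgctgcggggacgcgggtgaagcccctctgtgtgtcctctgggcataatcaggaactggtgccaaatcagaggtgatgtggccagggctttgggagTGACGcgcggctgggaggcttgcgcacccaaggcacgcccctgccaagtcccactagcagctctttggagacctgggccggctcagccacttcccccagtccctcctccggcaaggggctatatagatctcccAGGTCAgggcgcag
Dio2, chr12:90739039-90739288, minus strand: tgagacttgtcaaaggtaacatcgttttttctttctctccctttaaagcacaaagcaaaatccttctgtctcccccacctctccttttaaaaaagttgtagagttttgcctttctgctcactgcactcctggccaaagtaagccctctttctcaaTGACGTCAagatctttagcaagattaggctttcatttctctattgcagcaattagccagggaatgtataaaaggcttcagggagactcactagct
Ppargc1a, chr5:51567726-51567975, minus strand: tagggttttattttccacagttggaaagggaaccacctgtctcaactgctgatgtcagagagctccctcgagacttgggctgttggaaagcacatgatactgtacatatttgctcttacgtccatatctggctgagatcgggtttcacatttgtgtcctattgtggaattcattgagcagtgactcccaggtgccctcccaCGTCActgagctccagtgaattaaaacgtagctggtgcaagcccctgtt
Slc27a2, chr2:126552774-126553023, plus strand: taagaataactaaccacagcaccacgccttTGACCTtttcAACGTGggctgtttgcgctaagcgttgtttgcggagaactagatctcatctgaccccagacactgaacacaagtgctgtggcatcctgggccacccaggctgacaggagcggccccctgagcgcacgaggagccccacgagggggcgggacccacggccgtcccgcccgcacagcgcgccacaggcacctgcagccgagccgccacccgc
Ucp3, chr7:100472741-100472990, plus strand: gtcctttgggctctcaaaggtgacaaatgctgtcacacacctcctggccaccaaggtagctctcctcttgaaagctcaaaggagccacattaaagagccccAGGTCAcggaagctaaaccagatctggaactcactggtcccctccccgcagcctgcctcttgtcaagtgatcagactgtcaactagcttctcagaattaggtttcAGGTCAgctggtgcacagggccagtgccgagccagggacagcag
The letters searched, on both strands, were TGACGTCA (the cAMP element), TGACG (its first part, which overlaps it), AGGTCA (a nuclear receptor site), CACGTG (E-box), CACGTT (E-prime box), and TTATGTAA or TTACGTAA (D-box). Dio2 alone of the 6 members searched held the full cAMP element, 95 to 88 bases before its start. That element was in 1.5% of 32851 promoters of the same length. Ppargc1a held TGACG on the other strand (printed as CGTCA), 49 to 45 bases before a start that lies inside the annotated span of the gene, and Ucp1 held it 147 to 143 bases before its start. The shorter string was in 17.8% of promoters. Ucp3 held AGGTCA at 2 places, Ucp1 at 1, and Slc27a2 at 1 on the other strand (TGACCT), against 14% of promoters. Slc27a2 also held the E-prime box on the other strand (AACGTG), 210 to 205 bases before its start, against 3.8%. The E-box (6.0% of promoters) and the D-box (0.9%) were in none of the 6 windows, and Prdm16, which is not shown, held none of the strings. A match describes letters in a window and is no measure of binding. No window is shown for Ppargc1b and Cidea.

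Array medians lay between 95.2 and 106.6 in intensity across the series. By a rule on cell type markers and on correlation within the tissue, 28 of the 288 arrays stood apart, among them 5 of aorta, 6 of white adipose and 1 of brown adipose. The mean of 8 brown adipocyte markers was 9.71 ± 0.07 on the log2 scale in brown adipose, 8.89 ± 0.12 in aorta and 6.71 ± 0.09 in white adipose (SD, n = 24 arrays each). Of these, Otop1, Kcnk3, Ebf2, Cox8b and Cox7a1 averaged 9.57 or more in aorta, whereas Zic1 averaged 4.86 there and 7.25 in brown adipose, and Bmp8b stayed near 6 in every one of the 3 tissues (5.82 to 6.19). Lhx8 averaged 6.08 in aorta and 7.01 in brown adipose. Heart makes 3 of these markers at levels like those of brown adipose (Cox8b at 13.43, Cox7a1 at 13.32 and Kcnk3 at 10.15), but had Otop1 at 6.53 and Ebf2 at 7.49, where aorta had 9.96 and 9.57. White adipose had Otop1 at 6.43 but Ebf2 at 9.065, near the aorta level. Kcnk3 averaged 11.31 in adrenal gland, above its levels in brown adipose and aorta. The aorta arrays carried smooth muscle markers at a mean of 11.72 and heart muscle markers at 10.71, the latter from 8.89 at CT62 to 11.69 at CT28. Skeletal muscle markers varied widely, from 6.63 at CT36 to 11.73 at CT44 among the brown adipose arrays and from 6.49 to 10.25 among the aorta arrays.

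Ucp1 separated the tissues most. Its log2 level ran from 12.86 through a median of 13.09 to 13.59 in brown adipose, and from 11.97 through 12.56 to 13.11 in aorta. These ranges overlapped, and both lay above every array of the other 10 tissues. Adrenal gland came next with 7.48, 8.81 and 10.28 (lowest, median, highest). The remaining 9 tissues had means between 4.68 in lung and 5.25 in liver, each overlapping the next, and white adipose belonged to them with 5.06, 5.22 and 5.47. Values may have been normalized within each tissue, so the order of tissues is a description and was not tested. In pooled tissue RNA, fewer cells of a type and less RNA per cell cannot be told apart.

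Cidea had the same tissues at the top. Its log2 level was 12.55, 12.73 and 12.85 in brown adipose (lowest, median, highest) and 11.83, 12.10 and 12.29 in aorta, with no overlap. Adrenal gland (mean 8.82 ± 0.48, SD, n = 24) and heart (8.31 ± 0.11) followed and overlapped each other, and white adipose stood next to last at 5.07 ± 0.14. Over the 12 tissue means, Otop1, a proton channel gene, was the most like Ucp1 among the genes searched (Pearson r = 0.98), and Cidea was the second (r = 0.95).

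The other 6 members were spread over more tissues. Dio2 was highest in aorta (7.68, 8.52 and 9.78) and brown adipose (6.98, 8.16 and 9.74), which overlapped, and brainstem and cerebellum followed, both with a mean of 8.08. Ppargc1a was highest in heart at a mean log2 level of 11.51 ± 0.13, above kidney at 11.08 ± 0.06 without overlap. Brown adipose, with a mean of 10.59 ± 0.47 and a wide range of 9.96 to 11.72, overlapped heart, kidney and skeletal muscle for this gene. Ppargc1b was highest in brown adipose (10.14 ± 0.21) and then aorta (9.17 ± 0.27), whose ranges overlapped. Prdm16 was highest in aorta (8.58 ± 0.12), then brown adipose (8.13 ± 0.25) and lung (7.91 ± 0.06), each overlapping the next. Slc27a2 was highest in liver (13.45 ± 0.06) and kidney (13.36 ± 0.03), which overlapped, then brown adipose (11.51 ± 0.54) and aorta (10.67 ± 0.54). Ucp3 was highest in skeletal muscle (9.64 ± 0.33), brown adipose (9.48 ± 0.40) and heart (9.01 ± 0.50), before aorta (8.52 ± 0.44) and white adipose (7.85 ± 0.37), each overlapping the next.

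**Figure D1:**
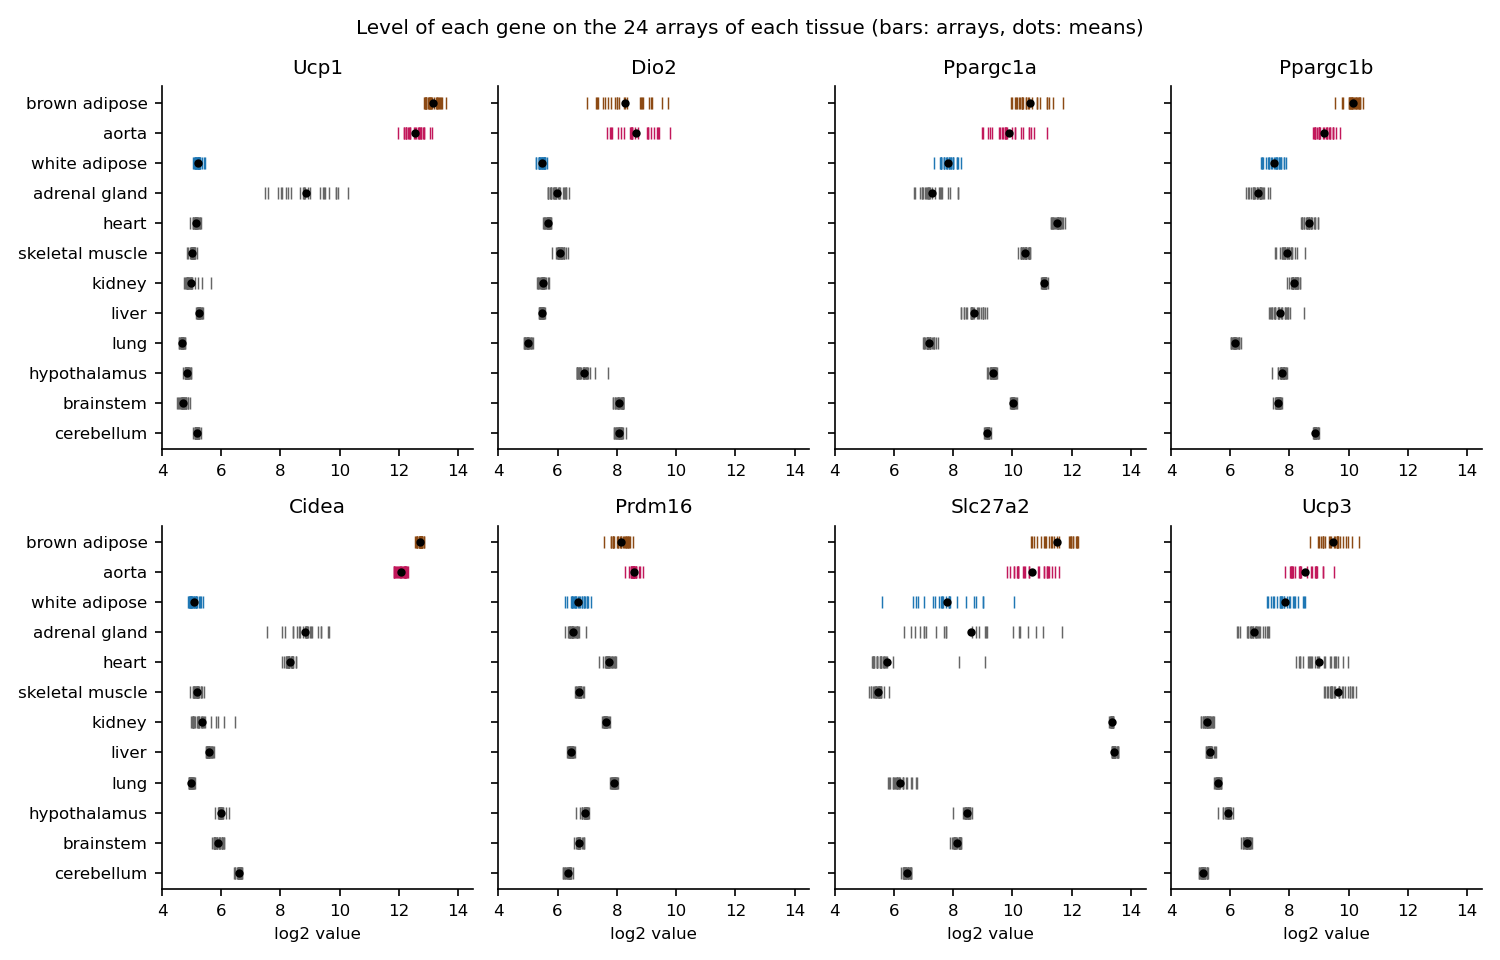
Level of each of the 8 genes on the log2 scale (horizontal axis) in 12 tissues (vertical axis), where each short bar is 1 array, with 24 a tissue, and the dot is their mean. Ucp1 and Cidea stand apart in brown adipose and aorta, with white adipose at means of 5.22 and 5.07.

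Over time, 6 of the 8 members had a 24 h wave in brown adipose at an adjusted p under 0.05 (limma, moderated F test of a cosine and a sine, adjusted over all 19938 genes), where 16.5% of all genes had one. All 6 peaked in the subjective day, between CT5.53 and CT9.89, and all 6 were called with skeletal muscle markers in the fit too. In aorta 5 of 8 had a wave, against 5.09% of all genes, again all in the subjective day, and the same 5 were called with heart muscle markers in the fit. With brown adipocyte markers in the fit, Ucp1 lost its call in brown adipose. In aorta Ucp1, Ppargc1a and Ppargc1b then lost theirs, and Prdm16 gained one. Among all called genes, 47.5% peaked in the subjective day in brown adipose and 58.5% in aorta. In white adipose 1 of 8 had a wave, against 4.85%, and it peaked in the subjective night. Because the members were chosen with earlier results of these data known, these shares are descriptions and no independent test. The median peak-to-trough fold of the 8 members was 1.64 in brown adipose, 1.44 in aorta and 1.16 in white adipose, and that of all genes was 1.09, 1.08 and 1.09. Folds below carry a 95% interval and peak times a standard error (SE).

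Slc27a2, which activates very long fatty acids, had the largest wave of the members in brown adipose. Its log2 values ran from 10.64 at CT42 through a median of 11.45 to 12.23 at CT32. The 12 arrays of the subjective day had a median of 11.98 and the 12 of the subjective night 11.11, with overlapping ranges. The fold was 2.73 (2.46 to 3.02) with a peak at CT8.01 (SE 0.192 h) and adjusted p = 4.495e-13. It was 2.67 with a peak at CT8.13 over the first 12 arrays and 2.79 with a peak at CT7.88 over the last 12, so the second cycle returned at nearly the same size and time. In aorta the gene ran from 9.82 at CT64 through 10.56 to 11.58 at CT32. The aorta fold was 2.55 (2.14 to 3.05) with a peak at CT7.45 (SE 0.354 h) and adjusted p = 2.472e-07. Both tissues had their highest Slc27a2 array at CT32, an array on which hepatocyte markers stood at 7.09 in brown adipose against a median of 5.84. Without the arrays that stood apart the folds were 2.73 and 2.58. In aorta the hepatocyte markers ran from 6.60 at CT34 through 7.88 to 10.79 at CT18, an array that this fit kept. No aorta fit had hepatocyte markers in it, so the part of liver RNA in the aorta wave was not tested.

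Ucp3, the mitochondrial carrier related to Ucp1, ran from 8.69 at CT20 through 9.52 to 10.34 at CT28 in brown adipose. The fold was 1.90 (1.60 to 2.24) with a peak at CT7.33 (SE 0.487 h) and adjusted p = 1.400e-05. The wave was 2.31-fold over the first 12 arrays and 1.57-fold over the last 12. In aorta it ran from 7.86 at CT20 through 8.37 to 9.50 at CT28, with a fold of 2.05 (1.70 to 2.46), a peak at CT6.73 (SE 0.477 h) and adjusted p = 2.958e-05. The lowest and the highest array thus fell at the same times in both tissues.

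White adipose had Ucp3 at the opposite time of day. There the log2 values ran from 7.24 at CT22 through 7.78 to 8.52 at CT18, with a median of 7.69 in the subjective day and 8.09 in the subjective night and overlapping ranges. The fold was 1.58 (1.25 to 2.01) with a peak at CT17.7 (SE 0.946 h) and adjusted p = 0.04433. This call was lost when any of 18 of the 24 arrays was left out, with adjusted p between 0.005082 and 0.1121 over the 24. The lowest array, CT22, carried lung epithelium markers at 12.1. The brown adipose peak lay 10.3 h and the aorta peak 10.9 h before the white adipose peak. The wave of the difference was 2.93-fold (2.34 to 3.67) for brown adipose and 3.21-fold (2.56 to 4.02) for aorta, with adjusted p = 2.093e-14 and 3.908e-16 in a fit of all 288 arrays. With only the 48 arrays of each pair the adjusted p was 2.430e-05 and 4.042e-05 (limma).

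Ppargc1a, the cold-responsive coactivator gene, had its highest array at CT30 in both brown adipose and aorta. In brown adipose it ran from 9.96 at CT46 through 10.47 to 11.72. The fold was 2.02 (1.60 to 2.54) with a peak at CT7.74 (SE 0.613 h) and adjusted p = 2.596e-04. In aorta it ran from 8.96 at CT38 through 9.78 to 11.18, with a fold of 2.05 (1.46 to 2.87), a peak at CT6.38 (SE 0.875 h) and adjusted p = 0.02212. The aorta call was lost without CT30 or CT32, where adjusted p reached 0.06692, and without the arrays that stood apart (0.05642). With brown adipocyte markers in the fit the aorta fold was 1.63 and the adjusted p 0.1909. The second probe set of the gene gave 2.32-fold in brown adipose and 2.38-fold in aorta. White adipose ran from 7.36 to 8.27, with a fold of 1.08 and adjusted p = 0.8880.

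Ppargc1b, the coactivator tied to mitochondrial content, moved less. Its brown adipose values ran from 9.55 at CT18 through 10.14 to 10.47 at CT28. The fold was 1.36 (1.22 to 1.52) with a peak at CT6.36 (SE 0.682 h) and adjusted p = 9.206e-04. In aorta it ran from 8.78 at CT62 through 9.15 to 9.72 at CT26, with a fold of 1.44 (1.24 to 1.67), a peak at CT4.08 (SE 0.767 h) and adjusted p = 0.007717. With the mean of the brown adipocyte markers in the fit, the aorta fold was 1.22 and the adjusted p 0.08960.

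Ucp1 had a small wave on its high level. In brown adipose CT30 was the highest array (13.59) and CT46 the lowest (12.86), and the subjective day (median 13.30) and night (12.96) overlapped. The fold was 1.34 (1.198 to 1.501) with a peak at CT5.53 (SE 0.716 h) and adjusted p = 0.001495. The peak fell at CT6.62 over the first 12 arrays and at CT4.25 over the last 12. In aorta, where the gene ran from 11.97 at CT62 to 13.11 at CT30, the fold was 1.43 (1.19 to 1.71) with a peak at CT5.45 (SE 0.935 h) and adjusted p = 0.03580. Leaving out any of 10 of the 24 aorta arrays ended that call, with adjusted p up to 0.1013. The mean of the brown adipocyte markers moved with Ucp1 over the 24 arrays (r = 0.69 in brown adipose and 0.73 in aorta). With that mean in the fit the fold was 1.22 in brown adipose (adjusted p = 0.06035) and 1.21 in aorta (0.4043).

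Prdm16 peaked last among the called members of brown adipose. It ran from 7.57 at CT44 through 8.14 to 8.53 at CT60. The fold was 1.39 (1.202 to 1.609) with a peak at CT9.89 (SE 0.822 h) and adjusted p = 0.005306. In aorta the fold was 1.11 (1.01 to 1.23) and adjusted p = 0.4151, although it was called there with the brown adipocyte markers in the fit (1.21, adjusted p = 0.03479).

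Cidea stayed nearly flat. In brown adipose it moved between 12.55 and 12.85, with a fold of 1.10 (1.04 to 1.16) and adjusted p = 0.05307. The adjusted p ranged from 0.008112, with arrays centred on their median, to 0.5572, with the brown adipocyte markers in the fit. In aorta the fold was 1.15 (1.03 to 1.28) with adjusted p = 0.3082, and Cidea moved with the brown adipocyte markers there (r = 0.90, n = 24). Cidea had no called wave in any of the 12 tissues.

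**Figure D2:**
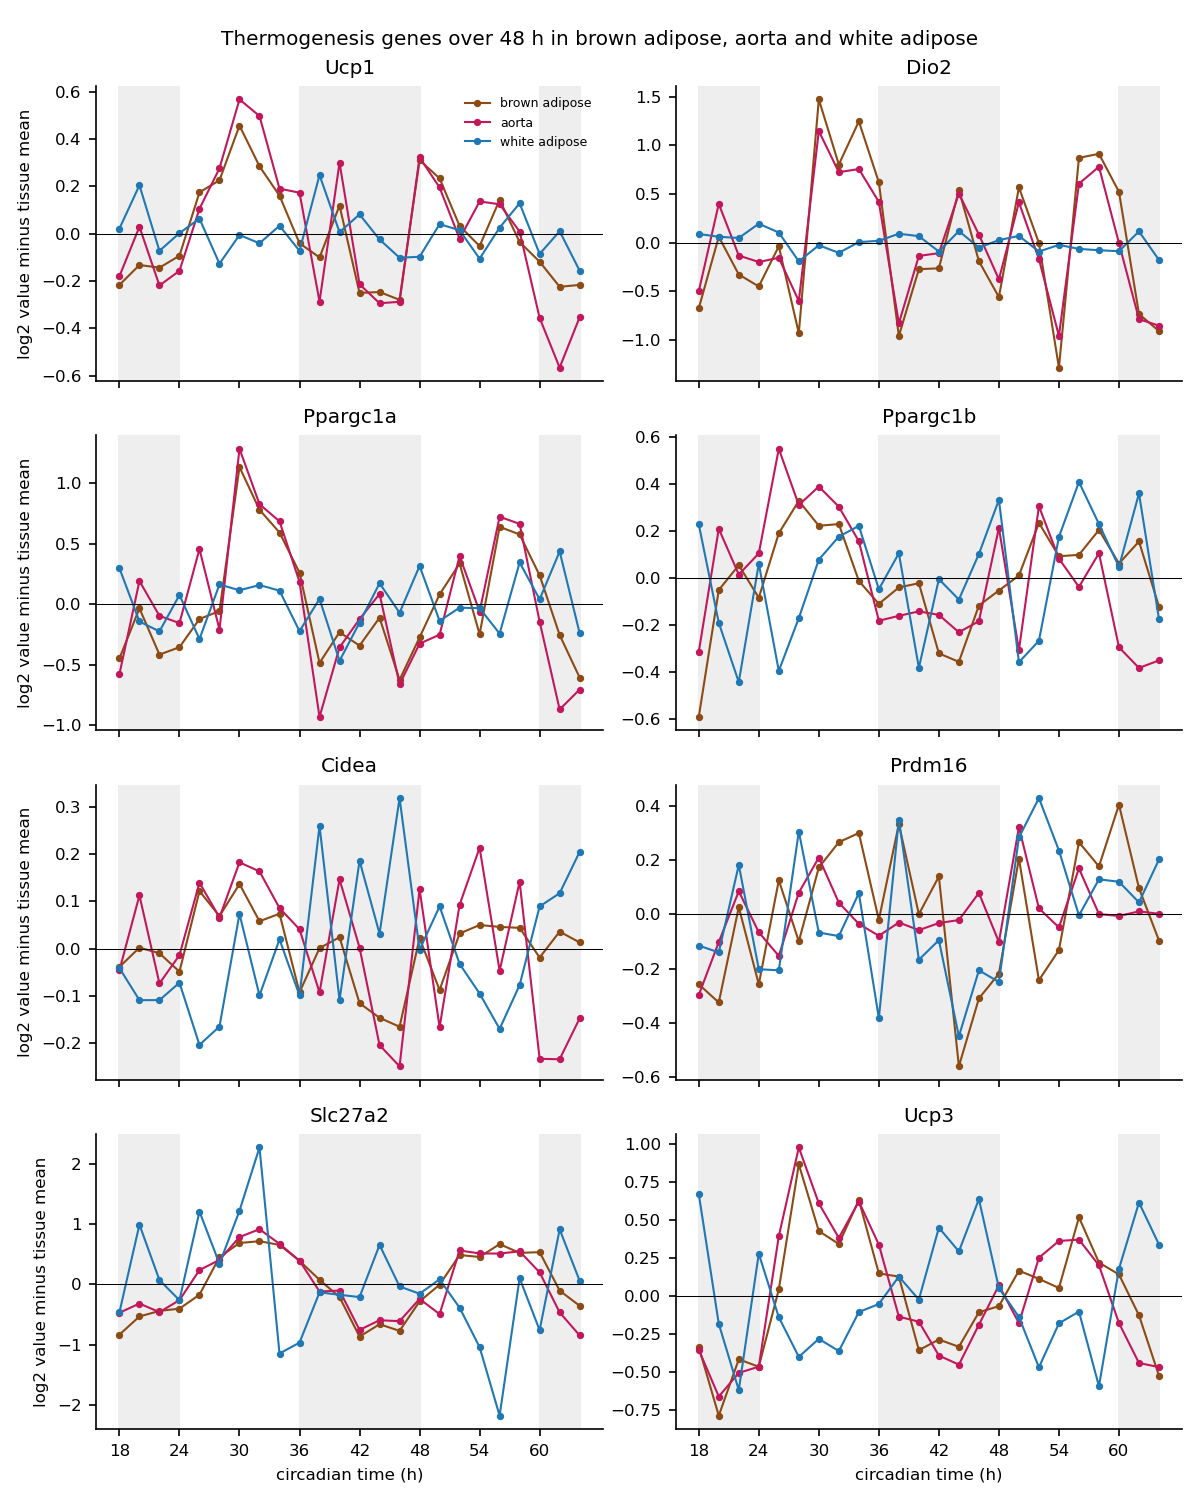
Log2 value minus the tissue mean (vertical axes, scaled by gene) against circadian time in hours (horizontal axis) for the 8 genes in brown adipose, aorta and white adipose, 1 point per array, with subjective night in grey. Slc27a2 and Ucp3 had waves of 2.73-fold and 1.90-fold in brown adipose, and the brown adipose and aorta lines of Dio2 run together although Dio2 had no called wave in either tissue.

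Dio2 swung widely between neighbouring times. In brown adipose it was 7.34 at CT28, 9.74 at CT30 (the highest array) and 6.98 at CT54 (the lowest). In aorta the same arrays read 8.04, 9.78 (highest) and 7.68 (lowest). A wave captured little of this: the brown adipose fold was 1.90 (1.13 to 3.21) with adjusted p = 0.1817, and the aorta fold 1.45 (upper bound 2.23) with adjusted p = 0.6309. Leaving out CT54 alone brought brown adipose to an adjusted p of 0.02977.

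What the waves left over in Dio2 was nearly the same in both tissues. The distances of the 24 arrays from the fitted wave, matched by time, correlated between brown adipose and aorta at Pearson r = 0.971 and Spearman rho = 0.964. Both gave adjusted p = 5.33e-05, from the smallest value that 100000 permutations can give (two-sided permutation test, 16 relations tested). The coefficient was 0.963 without the 2 times farthest from the median, 0.974 over the first 12 times and 0.972 over the last 12. It was above that of 99.995% of all genes, whose median was 0.192. Only the 24 h wave had been taken out. A 12 h wave of Dio2 had 2.08-fold with a first peak at CT9.32 in brown adipose and 1.98-fold at CT9.03 in aorta. Neither was called (limma adjusted p = 0.07955 and 0.7502), and the part of a 12 h wave in the correlation was not tested. Ppargc1a followed with r = 0.864 (rho = 0.880, 0.853 without the 2 farthest times, 0.922 and 0.785 by day). Ucp1 had r = 0.816 (rho = 0.825, 0.724 without the 2 farthest times, 0.838 and 0.729 by day), and both had the same adjusted p of 5.33e-05 in the permutation test.

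Ucp3 had r = 0.679 and rho = 0.597 (adjusted permutation p = 0.00132 and 0.00988), which fell to 0.538 without the 2 farthest times and 0.438 over the last 12. Cidea had r = 0.509 (adjusted permutation p = 0.0346) and rho = 0.450 (0.085). Prdm16, Slc27a2 and Ppargc1b had r between 0.310 and 0.357, with adjusted permutation p from 0.192 to 0.224. Between brown adipose and white adipose, r ran from -0.394 for Ppargc1b to 0.263 for Prdm16, and the lowest adjusted permutation p was 0.152. This relation was chosen after its values were seen, and neighbouring times may not be independent. The labels used here do not say whether the organs of a time point came from the same mice. The mean of the brown adipocyte markers moved little with Dio2 (r = 0.08 in brown adipose and 0.27 in aorta, n = 24).

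**Figure D3:**
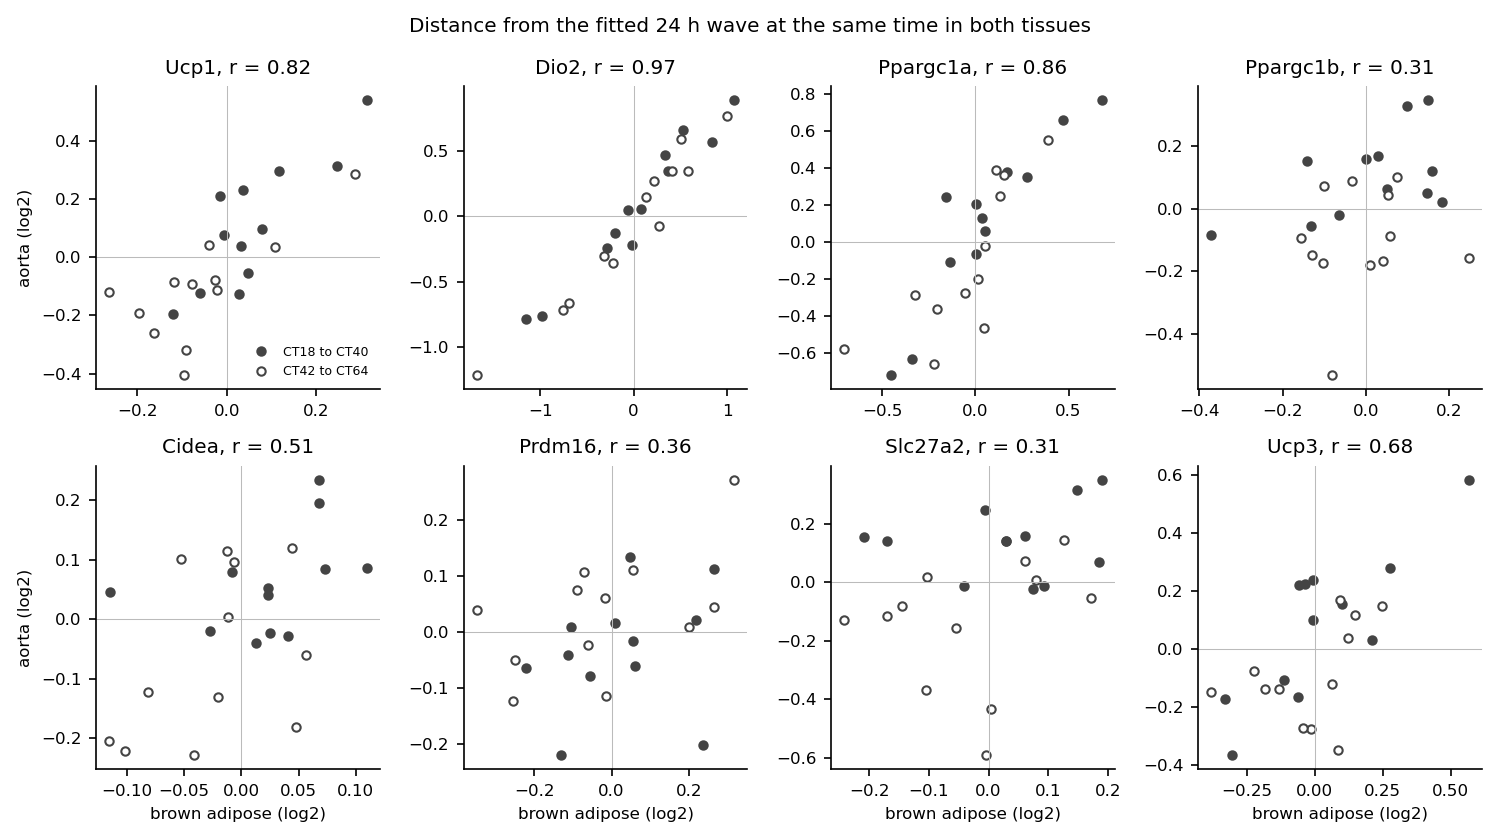
Distance of each array from the fitted 24 h wave in brown adipose (horizontal axis, log2) and in aorta at the same time (vertical axis, log2), with filled points for CT18 to CT40 and open points for CT42 to CT64. The 24 points of Dio2 lie along a line (r = 0.97), those of Ppargc1a (0.86) and Ucp1 (0.82) scatter more, and Slc27a2 shows a loose cloud (0.31).

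Within brown adipose, Dio2 and Ppargc1a moved together over the 24 arrays (r = 0.85), as they did in aorta (0.80). Slc27a2 moved with Ucp3 (0.80) and Ppargc1a (0.79), and Dio2 with Cidea hardly (0.11). These coefficients are descriptions over arrays that share a wave and a library. Among the genes searched, the most like Ppargc1a on the brown adipose arrays was Nr4a3, an orphan nuclear receptor gene (r = 0.90). Dio2 was not called in brown adipose and lay outside the rule for this search, and its nearest genes, Nr4a1 (0.88) and Nr4a3 (0.87), were looked up after the values were seen. Slc27a2 was most like Fbxo21 (0.97) and Gpat4, a glycerol-3-phosphate acyltransferase gene (0.93). Ucp1 was most like Prelid3b (0.93), Ppargc1b like Usp36 (0.91) and the glycerol channel gene Aqp7 (0.90), and Prdm16 like Ppp1r37 (0.84) and the insulin signalling kinase gene Akt2 (0.83). For Ucp3 they were Pex16 (0.84), Cabin1 (0.83) and Nr1d1, which encodes the clock repressor REV-ERBalpha (0.82). Over the 12 tissue means, Ucp3 was most like Myl1, a fast muscle myosin light chain gene (0.94), Slc27a2 like Traf4 (0.95) and Dio2 like the neurotrophin receptor gene Ntrk3 (0.92).

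The difference between tissues was tested in a single fit of all 288 arrays. Between brown adipose and aorta, 1 of 8 members differed in its wave, against 5.20% of all genes. It was Prdm16, with a difference of 1.36-fold (1.19 to 1.55) and adjusted p = 0.001543, and with the 48 arrays of both tissues alone the adjusted p was 0.1414. For the other 7 the adjusted p lay between 0.3579 and 0.9887. The interval of the difference reached 1.39-fold for Ucp1 and 2.17-fold for Slc27a2, so this fit could not tell differences of that size from none. Its scatter is pooled over all 12 tissues, and Slc27a2 had an SD of 1.60 in adrenal gland. Fitted in each tissue alone, Slc27a2 had narrower intervals, 2.46 to 3.02 in brown adipose and 2.14 to 3.05 in aorta.

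Between brown adipose and white adipose, 6 of 8 members differed, against 18.6% of all genes. Next to Ucp3, the difference was 1.88-fold (1.49 to 2.38) for Ppargc1a with adjusted p = 5.621e-05, and with the 48 arrays alone the adjusted p was 0.02548. Dio2 (adjusted p = 0.001183), Slc27a2 (0.003048), Ppargc1b (0.02765) and Prdm16 (0.03763) passed only in the fit of all arrays (limma). Dio2 had a called wave in neither of the 2 tissues. With the 48 arrays alone these 4 were not called (limma adjusted p = 0.2492, 0.06988, 0.2384 and 0.4962). Ucp1 went the other way, with 0.1592 in the fit of all arrays and 0.01168 with the 48. Between aorta and white adipose 4 of 8 differed, against 10.1% of all genes. Beside Ucp3 they were Ppargc1a (adjusted p = 5.800e-05), Ppargc1b (1.526e-04) and Slc27a2 (0.01227), and Ucp3 alone remained with the 48 arrays.

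In the other 9 tissues, 11 of 72 pairs of a member and a tissue had a called wave, against 11.7% of all gene and tissue pairs. Of these 11, 7 peaked in the subjective day and 4 in the night, and 5 had a fold under 1.2. By tissue the members called were 3 of 8 in heart (8.64% of all genes), 2 in liver (26.8%), 1 each in adrenal gland (5.89%), brainstem (4.78%), cerebellum (5.49%), kidney (25.8%), lung (20.9%) and skeletal muscle (5.12%). In hypothalamus 0 were called by limma at the adjusted threshold (1.80%), and 2 had an unadjusted p below it.

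Heart held members of both phases. Ucp3 ran from 8.24 at CT62 through 8.95 to 9.97 at CT52, with a fold of 2.16 (1.71 to 2.73), a peak at CT6.49 (SE 0.562 h) and adjusted p = 9.549e-05. Its time thus lay close to that in brown adipose. Ppargc1a ran from 11.31 at CT32 through 11.53 to 11.79 at CT20, and its median was 11.39 in the subjective day and 11.60 in the night. Its heart fold was 1.19 (1.10 to 1.28) with a peak at CT17.6 (SE 0.830 h) and adjusted p = 0.008284, and 0.07238 on ranks. Prdm16 had a heart fold of 1.21 (1.12 to 1.32) with a peak at CT20.0 and adjusted p = 0.005712.

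Brown adipose and heart were compared after these waves had been seen. In that comparison 3 of 8 members differed, against 14.4% of all genes. The difference was 2.35-fold (1.85 to 2.97) for Ppargc1a, whose peaks lay 9.89 h apart (adjusted p = 5.797e-09, and 1.387e-05 with the 48 arrays alone). It was 1.66-fold (1.46 to 1.90) for Prdm16, whose peaks lay 10.1 h apart (4.970e-10 and 9.582e-05). Dio2 differed at 0.001473, and 0.1790 with the 48 arrays, while Ucp1 had 0.4082 and, with the 48 arrays, 0.02423. For Ucp3 the difference was 1.22-fold (upper bound 1.53) with adjusted p = 0.4816 (limma).

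**Figure D4:**
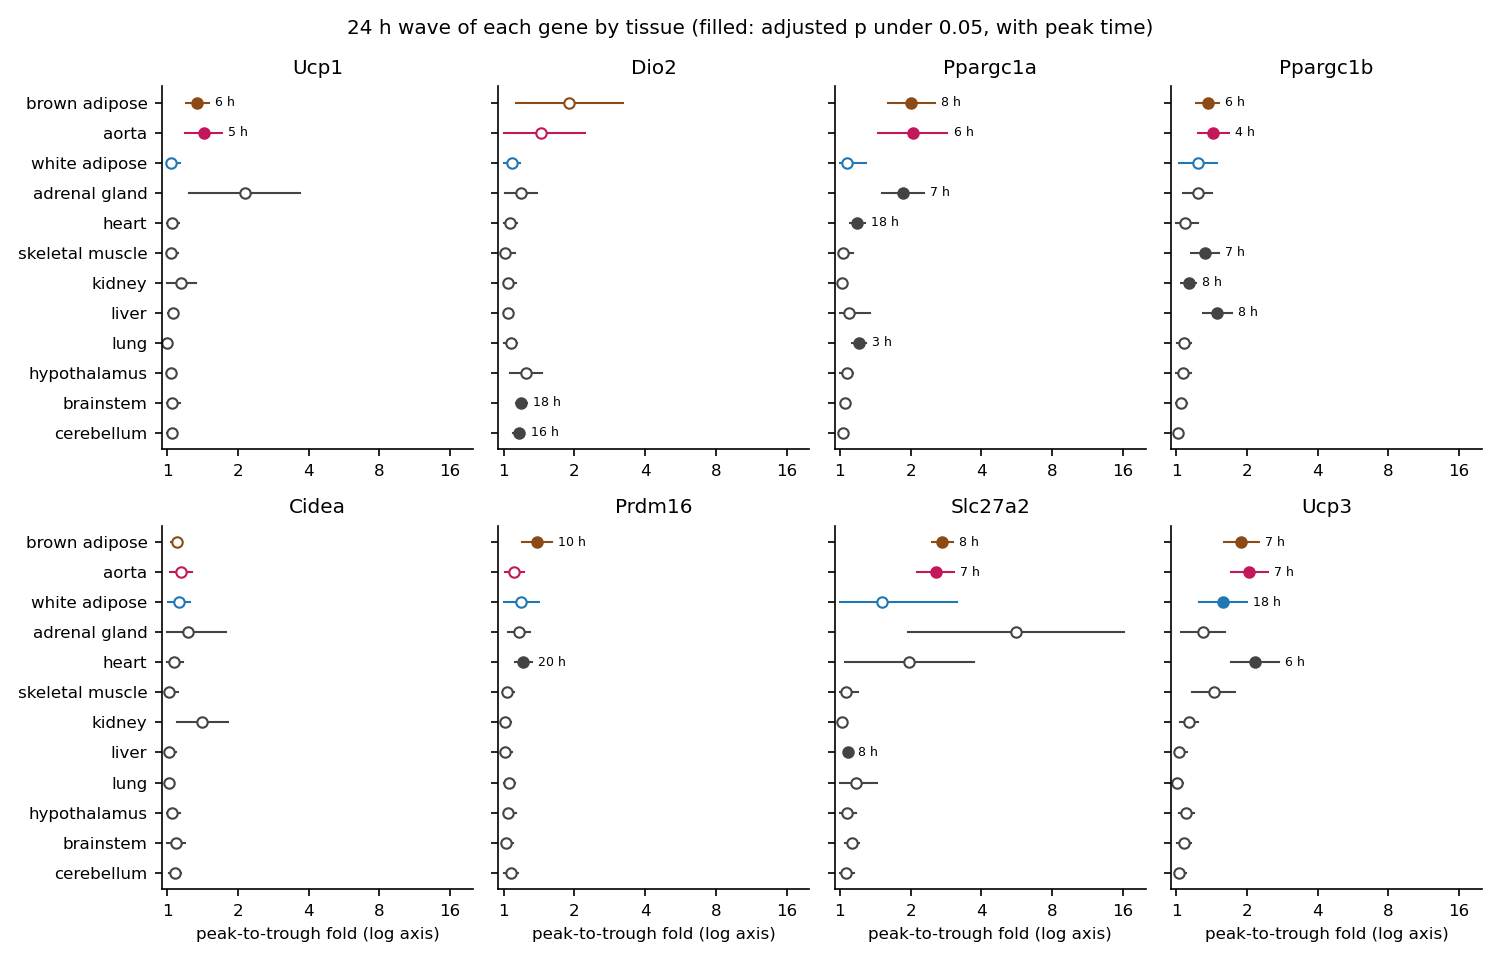
Peak-to-trough fold of the 24 h wave (horizontal log axis) with its 95% interval for each gene in each of 12 tissues (vertical axis), filled where adjusted p was under 0.05 and then marked with the peak time in hours of circadian time. Ppargc1a peaks near CT7.74 in brown adipose and CT17.6 in heart, and the widest interval, for Slc27a2 in adrenal gland, belongs to a fold of 5.62 that was not called.

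Ppargc1b was called in 5 tissues and peaked in the subjective day in all of them. Beyond brown adipose and aorta its fold was 1.49 in liver (1.295 to 1.722, peak CT7.64, adjusted p = 3.210e-04), 1.32 in skeletal muscle (peak CT6.75, 0.03102) and 1.13 in kidney (peak CT7.54, 0.02943). The skeletal muscle call was lost with lymphocyte markers in the fit (adjusted p = 0.3942) and without the arrays that stood apart (0.1487). Those markers had a median of 5.61 there and reached 7.87 at CT46. The kidney call was lost without such arrays (0.06499). Ppargc1a was also called in 5 tissues, with 1.85-fold in adrenal gland (1.51 to 2.27, peak CT6.93, adjusted p = 9.149e-04) and 1.204-fold in lung (peak CT3.46, 8.081e-04). In adrenal gland it moved with brown adipocyte markers (r = 0.50, n = 24) and with markers of either kind of adipocyte (r = 0.54), whose part in its wave was not tested. Hepatocyte markers also varied among the adrenal arrays, from 6.50 to 12.71. The mean level of Ppargc1a was 8.69 in liver and 7.30 in adrenal gland, and the part of liver RNA in its adrenal wave was not tested either. Dio2 was called only in brainstem (1.19-fold, peak CT18.1, 4.997e-04) and cerebellum (1.16-fold, peak CT16.3, 0.002043), both in the subjective night. Slc27a2 had a fold of 1.09 in liver (peak CT8.47, adjusted p = 0.003737), where its level was highest. Ucp3 in skeletal muscle, its highest tissue, had a fold of 1.44 (1.17 to 1.77) with a peak at CT6.21 that was not called (limma adjusted p = 0.07394).

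The widest swings of Slc27a2 outside brown adipose and aorta moved with hepatocyte markers. In adrenal gland it ran from 6.34 at CT24 through 8.70 to 11.68 at CT50, where the hepatocyte markers also had their highest value, 12.71, against a median of 9.95 (r = 0.95, n = 24). Its adrenal fold was 5.62 (1.95 to 16.2) with adjusted p = 0.1017, and 0.002480 with array weights. In white adipose it ran from 5.61 at CT56 through 7.71 to 10.07 at CT32 (r = 0.81 with the hepatocyte markers), and on that highest array kidney tubule markers stood at 7.02 against a median of 5.79. In heart its highest value, 9.06 at CT26, stood on the array where hepatocyte markers were at 11.13 against a median of 6.49. Liver and kidney have the highest levels of Slc27a2 in this atlas, and the part of liver or kidney RNA in these values was not tested. In the same way, Ucp1 and Cidea in adrenal gland moved with the brown adipocyte markers (r = 0.80 and 0.91), as they did in kidney (0.79 and 0.91), where both had their highest array at CT40 together with those markers.

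Genes around the members were counted on lists of the pathway, to be read against the 16.5% of all genes called in brown adipose, 5.09% in aorta and 4.85% in white adipose. The lists, too, were chosen with earlier results of these data known, so their counts are descriptions. Among 5 genes of adrenergic input, 4 were called in brown adipose, 3 in the subjective day and 1 in the night, against 1 in aorta and 2 in white adipose. Adcy3, an adenylyl cyclase gene, had the largest fold of the list in brown adipose (1.90, peak CT9.21, adjusted p = 1.206e-08) and in aorta (1.75, peak CT8.64, 2.401e-05). Mapk14, the p38alpha kinase gene, peaked in the night in brown adipose (1.41-fold, CT18.9, 1.208e-04).

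Among 15 regulators 8 were called in brown adipose, 7 of them in the subjective day, and 5 each in aorta and white adipose. With skeletal muscle markers or with brown adipocyte markers in the fit, brown adipose had 6. Nr1d1 had a fold of 12.4 (9.79 to 15.6) in brown adipose with a peak at CT6.91 and 17.2 in aorta with a peak at CT7.16. Esrrg, an estrogen-related receptor gene, was second in brown adipose (1.42-fold, CT9.07), and Thra, a thyroid hormone receptor gene, was second in aorta (1.55-fold, CT2.31). The list's median fold was 1.24 in brown adipose and 1.22 in aorta. Ebf2 stands on this list and among the brown adipocyte markers.

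Among 15 genes of fuel supply 6 were called in brown adipose (5 in the subjective day), 3 in aorta and 4 in white adipose, and with skeletal muscle or brown adipocyte markers in the fit brown adipose had 4. Angptl4, an inhibitor of lipoprotein lipase, led in brown adipose (2.37-fold, peak CT2.48, adjusted p = 5.676e-05) and in aorta (2.13-fold, CT2.02). Slc27a1, the fatty acid transporter gene related to Slc27a2, was second in both, with 1.34-fold at CT10.6 and 1.69-fold at CT9.70. The heat cycles that do without Ucp1 (creatine and calcium cycling, 9 genes) had 4 called in brown adipose, or 3 with brown adipocyte markers in the fit. All 4 peaked in the subjective night, against 47.5% of all called genes of that tissue that peaked in the day. No test set their times against those of the members. Ckmt2, a mitochondrial creatine kinase gene that muscle also makes, had 5.93-fold at CT21.8, and 1.79-fold (1.35 to 2.37) with skeletal muscle markers in the fit. Sln, the sarcolipin gene, had 1.44-fold at CT20.8, and 1.34-fold with those markers. In aorta and white adipose 0 of the 9 were called by limma, and 3 and 1 had an unadjusted p below 0.05.

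Of 6 secreted factors 3 were called in brown adipose, 3 in aorta and 2 in white adipose. Lep, the leptin gene, peaked in the night in brown adipose (3.20-fold, CT18.2, adjusted p = 1.400e-05) and in aorta (2.42-fold, CT16.3), and Nrg4, a brown fat growth factor gene, near the end of the day (1.56-fold at CT10.8 and 1.63-fold at CT10.4). Of 10 paralogs of the members 2 were called in brown adipose, a share near that of all genes, 1 in aorta and 0 in white adipose, where 2 had an unadjusted p below 0.05 (limma). Cideb (1.496-fold, CT11.9) and Cidec (1.304-fold, CT14.8), lipid droplet genes related to Cidea, were the 2 in brown adipose. With skeletal muscle markers in the fit 1 was called.

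No member drifted or had a second harmonic that passed the test. A straight trend over the 2 days was called by limma in 0 of 96 pairs of a member and a tissue (0.427% of all pairs), and 13 had an unadjusted p below 0.05, as had 11.08% of all pairs. In aorta 5 of these 13 were declines, the steepest relative to its error being that of Slc27a2, which fell by 0.29 log2 per 24 h (SE 0.063, adjusted p = 0.1110). A 12 h wave was likewise called in 0 of 96 (1.02% of all pairs), with 15 at an unadjusted p below 0.05 against 9.581% of all pairs. With array weights 5 were called, among them Dio2 in brown adipose (2.05-fold, adjusted p = 0.03134) and Slc27a2 in adrenal gland (5.49-fold, 0.01893).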

How the data were processed

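RNA of 288 pools was measured on microarrays, 1 array per pool. The authors deposited linear intensity values, processed with Affymetrix Expression Console and GCRMA per the submitters' processing notes. How arrays were normalized across tissues is not given in the sources used here, and array spread differs more between tissues than within them, so levels across tissues are described and not tested. A log2 scale had been planned for, but the deposited values were linear, so log2 was taken here with no pseudocount. The number of arrays limits the precision.

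Of 35556 probe sets, 21789 had 1 gene symbol, 1621 several and 12146 none. A gene with several probe sets (999 genes) was represented by that with the highest mean. All columns belonged to listed samples, and no 2 arrays were identical. Waves were fitted in R 4.3.3 with limma 3.58.1 (lmFit, eBayes with a variance trend) on a 24 h cosine and sine per tissue, with Benjamini-Hochberg adjustment over 19938 genes and a threshold of 0.05. Pairs of tissues were tested in 1 fit of 288 arrays. Tested on simulated data of brown adipose (19938 genes), the fit recovered 100% of 100 waves of 2-fold and 81% of 100 waves of 1.3-fold, and 16 of 197 calls were false. The simulated scatter was independent between genes, whereas real arrays share swings of cell type markers, so these rates may not carry over. An array stood apart where the mean of a marker list differed from its tissue's median by over 1 log2 unit and over 5 scaled deviations (MAD), or its correlation with the other arrays lay by over 0.003 and 5 deviations too low. Alternatives were array weights, ranks, a straight line, median centring, marker means as covariates, mean of probe sets, a filter on dim genes, no variance trend, and leaving out arrays.

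Named were all members and the 2 called genes of each pathway list with the largest fold in brown adipose and in aorta. The search for like genes left out provisional symbols (such as Gm, LOC and Rik names) and symbols with a digit as first or second character. It kept the 3 most like each member, over tissue means and, for members called in brown adipose, over its arrays. Some of these, not all, are named. Members and lists were chosen with earlier results of these data known. Promoters and names are from RefSeq, where 21698 gene identifiers were found and 91 were not. All members matched. Their spans in GRCm38.p6 are chr8:83290348-83298456 for Ucp1, chr12:90724552-90739038 for Dio2, chr5:51454249-52115853 for Ppargc1a, chr4:154316122-154637360 for Prdm16, chr2:126553024-126588243 for Slc27a2 and chr7:100472991-100486432 for Ucp3. Whether probes lie in exons or untranslated regions was not analysed here.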

Additional observations from a re-analysis of the deposited data

Results flagged for a closer look

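Each result here is a wave that differed between a pair of tissues in the fit of all 288 arrays (limma, adjusted over all genes). Between brown adipose and aorta it was Prdm16 (adjusted p = 0.001543). Between brown adipose and white adipose the members were Ucp3 (2.093e-14), Ppargc1a (5.621e-05), Dio2 (0.001183), Slc27a2 (0.003048), Ppargc1b (0.02765) and Prdm16 (0.03763). Between aorta and white adipose they were Ucp3 (3.908e-16), Ppargc1a (5.800e-05), Ppargc1b (1.526e-04) and Slc27a2 (0.01227). Between brown adipose and heart, a comparison added after the waves were seen, they were Prdm16 (4.970e-10), Ppargc1a (5.797e-09) and Dio2 (0.001473). Comparisons that share a tissue share its arrays.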

How the results depend on the processing

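All 6 waves called in brown adipose were kept when any 1 array was left out, and the count was 5 with brown adipocyte markers in the fit, where Ucp1 was not called (adjusted p = 0.06035). The count of 5 members in aorta was 2 on ranks, 3 without the arrays that stood apart, 3 with brown adipocyte markers in the fit, and 3 to 5 when 1 array was left out (3 without CT30 or CT32). With the brown adipocyte markers Ucp1, Ppargc1a and Ppargc1b lost their aorta call, and Prdm16, not called there in the main fit, gained one. The 1 member in white adipose was 0 on ranks, 0 with arrays centred on their median, 0 with skeletal muscle or brown adipocyte markers in the fit, and 0 to 1 when 1 array was left out. The 11 pairs of the other 9 tissues became 18 with array weights, and the 0 waves of 12 h became 5. With only the arrays of both tissues, members whose wave differed numbered 0 instead of 1 for brown adipose and aorta, 3 instead of 6 for brown adipose and white adipose, and 1 instead of 4 for aorta and white adipose. For brown adipose and heart, 3 became 5 with array weights and 5 with centred arrays, and with only the arrays of both tissues there were 3, with Ucp1 in place of Dio2. The cause of these changes was not tested. Over all genes, calls in aorta were 1015, and 1879 with array weights, 567 on ranks and 464 without the arrays that stood apart. In white adipose they were 966, and 2024 with weights and 569 on ranks. In brown adipose they were 3299, and 2010 with skeletal muscle markers in the fit. For single genes, compared over the waves of all members in brown adipose, aorta and white adipose, the 11 calls of the other 9 tissues and the pairs of tissues (arrays left out singly and uncalled genes of the other tissues not included), 394 values kept their direction and side of the threshold, 29 lost and 12 gained a call, and 0 reversed. Without repeated time points, small waves such as that of Cidea lie near what 24 arrays can show.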
